A study of Homo sapiens with 12 samples.

Results

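The ATF4 program and the cytosolic tRNA synthetases were followed here as a set of 35 genes in T47D cells, a human luminal breast cancer line. The genes were chosen by name, as rows of the count table that carry 1 of the 35 symbols: 9 stress transcription factors and feedback regulators, 8 enzymes of amino acid and one-carbon synthesis, 6 amino acid transporters and 12 cytosolic aminoacyl-tRNA synthetases. All 35 symbols were found among the 27864 genes of the count table, and all 35 were among the 16081 genes with enough counts to be tested. Messenger RNA was sequenced in an NF1 knockout line (NF1KO) and in a control line (CTRL), each treated for 48 h with 3 µM BYL719 or with its vehicle DMSO. BYL719 (alpelisib) inhibits the alpha isoform of PI3-kinase, and NF1 encodes neurofibromin, which switches RAS off. The groups were NF1KO with BYL719 (3 libraries), NF1KO with DMSO (2 libraries, since the library labelled replicate 1 was not analysed here), CTRL with BYL719 (3 libraries) and CTRL with DMSO (3 libraries). Each genotype is a single line, and neither the number of clones behind it nor the way NF1 was disrupted is given in the sources used here, so a difference between the lines cannot be put down to NF1 alone. The labels call the libraries experimental replicates without saying whether they came from separate cultures, and p-values then measure only the spread between these libraries.

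ATF4 is a basic leucine zipper transcription factor made mainly when the initiation factor eIF2 is phosphorylated, as happens when amino acids run short, when proteins misfold in the endoplasmic reticulum, or on some other stresses. Its messenger RNA carries short upstream reading frames that restrict its translation in unstressed cells, so that the protein can change without the transcript. ATF4 pairs with C/EBP and other leucine zipper proteins on composite elements in the promoters of amino acid transporters, of enzymes that make serine, asparagine and proline, and of many tRNA synthetases, which attach amino acids to their tRNAs. The kinase mTORC1, which lies downstream of PI3-kinase, also raises ATF4 translation in many cells.

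The core of the composite element, TGATGNAA, is shown first because it is what the promoters of part of the set share outside the RNA data. RefSeq windows of 300 bases (250 before to 50 after an annotated start, GRCh38) were at hand for 29 of the 35 genes, and 13 of these 29 (44.8%) held the core on either strand in at least 1 window. It was present in 3.62% of all 35116 windows and in 346 (2.79%) of the 12380 tested genes with a window. The base at the free position was C in 9 of the 13 genes, A in 3 (ASNS, GARS1 and SLC7A1) and G in ATF3. The stretches below hold the core in capitals, each read 5′ to 3′ on the strand that carries it. They cover ASNS, the classical amino acid response gene, 4 synthetases, the ATF4 partner CEBPG and, from outside the set, CHAC1, another gene known to respond to ATF4 whose values follow further on.
ASNS, chr7:97872461-97872484, minus strand: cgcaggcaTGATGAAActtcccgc
CARS1, chr11:3057410-3057433, plus strand: ctagaatcTGATGCAAccgccgcc
IARS1, chr9:92293695-92293718, plus strand: cacggaggTGATGCAAcgcgctga
MARS1, chr12:57488056-57488079, minus strand: tccctcgcTGATGCAAccggaacc
GARS1, chr7:30594837-30594860, minus strand: tcggagcaTGATGAAAtcgccgcg
CEBPG, chr19:33374063-33374086, plus strand: gcggcgtcTGATGCAAcctgccgg
CHAC1, chr15:40953254-40953277, minus strand: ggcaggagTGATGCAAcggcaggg
Of the 13 genes, the 9 with C share TGATGCAA, while the flanking bases in the stretches shown differ. The matches of SLC1A5, SLC1A4, CEBPG, TARS1, GARS1 and ASNS lie at annotated starts downstream of the first start of the gene. A match describes the letters and does not show binding, and the windows of the other 16 genes, TRIB3 and DDIT3 among them, say nothing of elements elsewhere.

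**Figure D1:**
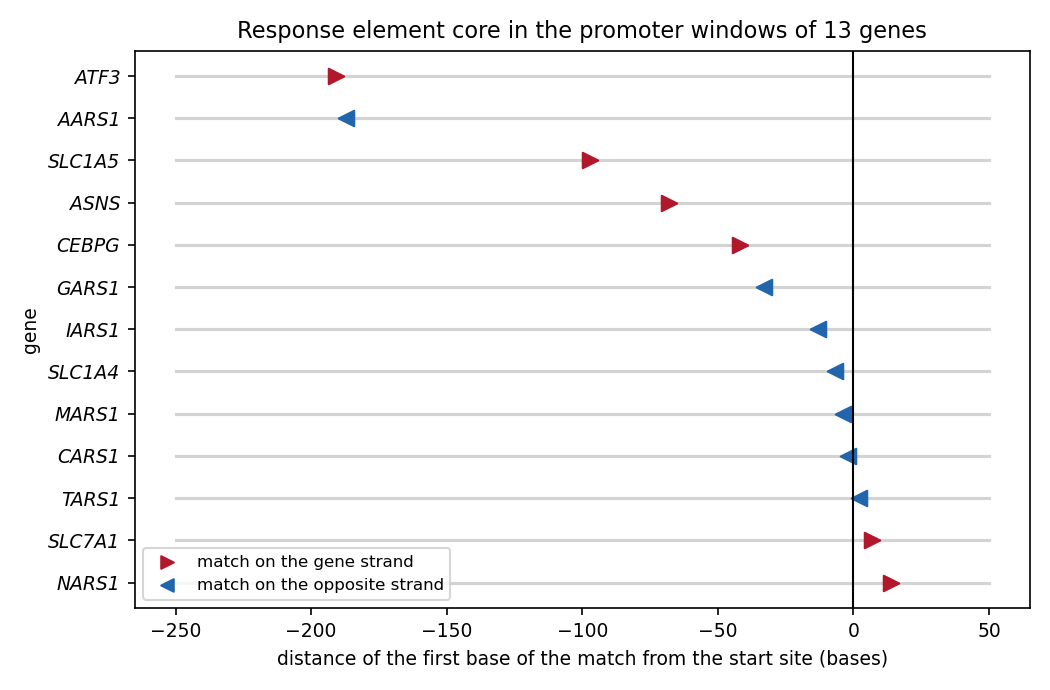
Distance in bases of the TGATGNAA core from the annotated start site (vertical line) in the promoter windows of the 13 genes that hold it, with the strand of the match shown by the direction and colour of the triangle. The cores lie between 191 bases before and 14 bases after the start of their window, and the one of ASNS lies 68 bases before it. That start is not the first annotated one in every gene.

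The libraries held between 53283945 and 60148876 counts, and every gene of the set had at least 7022 counts over the 11 libraries. Values are normalised read counts (CPM, scaled to a common library size with TMM factors), which compare libraries but not genes of different length. NF1 stood at 0.891, 0.547 and 0.4 CPM in NF1KO BYL719 libraries and at 0.48 and 0.471 CPM in NF1KO DMSO libraries, against 214, 147 and 152 CPM in CTRL BYL719 and 289, 209 and 250 CPM in CTRL DMSO. The 9 luminal markers summed to between 9930 and 14000 CPM in every library, and none of them was at 0, while the 5 immune markers summed to at most 3.71 CPM. Single luminal markers differed between the lines: in DMSO the means in NF1KO and CTRL were 181 and 323 CPM for ESR1, 577 and 882 CPM for PGR and 231 and 302 CPM for FOXA1. Means of KRT8, KRT18, KRT19, EPCAM, CDH1 and GATA3 were higher in NF1KO there. Of the 35 genes 19 were highest in replicate 1 of both CTRL groups, while 10 genes were lowest in it in each group. The share over all genes was not counted, but CTRL replicate 1 stood apart over all tested genes as well. Deviations from the group mean correlated at 0.59 between its BYL719 and DMSO libraries, and between -0.42 and -0.36 with other CTRL replicates. Deviations cancel out within a group, so the negative values follow in part from the 0.59. Replicates 2 and 3 correlated at 0.18 and 0.23 across treatments. Counts of calls are also given without both of these libraries. They were picked by the set's own values, so leaving them out lowers the CTRL means of these 19 genes in advance. Counts obtained in that way are not an independent check.

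In DMSO, most of the set was higher in the knockout line. Of the 35 genes 21 were higher in NF1KO than in CTRL, 1 was lower (SLC7A5, the leucine transporter) and 13 did not pass the test, a gene being called when its edgeR quasi-likelihood p, adjusted by Benjamini-Hochberg over all 16081 genes, was under 0.05. Of all genes tested, 20.3% were called in either direction, with 9.99% higher. The median log2 fold change was 0.31 over the set and -0.01 over all genes. In bulk RNA a smaller share of cells expressing a gene and less RNA per cell cannot be told apart. TRIB3, SESN2, DDIT3, PSAT1, SLC1A5, SARS1 and, on the lower side, SLC7A5 were called under every alternative tried. The other 15 calls were lost in at least 1 of them. Here and below, a library outside a comparison acts on it only through the shared spread, the filter, the scaling and the adjustment. It does not enter the compared group means, so a call lost without it was close to the threshold. Without CTRL DMSO replicate 3, NF1KO DMSO replicate 2 or NF1KO DMSO replicate 3 the count of higher genes was 10, 7 and 6, and the higher calls over all genes were 1286, 766 and 744 against 1607. Without both CTRL replicate 1 libraries 26 genes were higher and 1 was lower, while 1983 of all genes were higher and 2162 lower, against 1607 and 1662.

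In BYL719, 13 of the 35 genes were higher in NF1KO than in CTRL and 6 were lower, against 39.8% of all genes called (20.8% higher, 19% lower). The median was 0.10 over the set and 0 over all genes. The 6 lower genes were ATF3, CEBPB, PPP1R15A, SLC7A5, SLC38A2 and SLC6A9. The comparison in DMSO and that in BYL719 share no library, but both compare the same lines. Of the 35 genes 11 were higher in both: ATF5, TRIB3, SESN2, PSAT1, PSPH, MTHFD2, SLC7A1, SLC1A5, SLC1A4, IARS1 and YARS1. The number of all genes higher in both was not counted, so this overlap cannot be called particular to the set. Without both CTRL replicate 1 libraries the counts in BYL719 were 18 higher and 6 lower. Over all genes 3868 were then higher and 3579 lower, against 3343 and 3061. Leaving out single libraries gave 9 to 14 genes of the set higher and 5 or 6 lower.

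With BYL719 against DMSO, lower calls outnumbered higher ones in each line. In NF1KO 22 of the 35 genes were lower and 2 higher (PPP1R15A and SLC38A2), against 18.7% of all genes called (8.47% lower, 10.3% higher), with a median of -0.37 over the set and 0.01 over all genes. In CTRL 17 were lower and 5 higher (ATF3, CEBPB, PPP1R15A, SLC38A2 and SLC6A9), against 44.4% of all genes called (21.8% lower, 22.6% higher), with a median of -0.22 over the set and 0 over all genes. The 2 comparisons share no library with each other, but each shares its DMSO libraries with the comparison of the lines in DMSO. The same 15 genes were lower in both, out of 22 in NF1KO and 17 in CTRL, and PPP1R15A and SLC38A2 were higher in both. The overlap over all genes was not counted here either. Genes lower in NF1KO that did not pass in CTRL were ALDH1L2, ASNS, CARS1, DDIT3, SARS1, SESN2 and WARS1. In NF1KO the count of lower genes fell without NF1KO DMSO replicate 3, as did lower calls over all genes, but that fit left 1 library in its group. The 2 higher calls were close to the threshold. Neither was left without NF1KO BYL719 replicate 2, and 1 was left without NF1KO BYL719 replicate 1 or 3. Fits without an NF1KO DMSO library kept 1 library in that group and are left aside here. Neither call was left without CTRL DMSO replicate 2 or CTRL BYL719 replicate 3, and 1 was left without CTRL DMSO replicate 3. These CTRL libraries lie outside the comparison and enter it only through the shared spread, the filter, the scaling and the adjustment. Without both CTRL replicate 1 libraries 28 were lower and 3 higher in NF1KO, and 17 were lower and 5 higher in CTRL. Over all genes this omission gave 2548 lower and 2764 higher in NF1KO, against 1362 and 1652 with all libraries. In CTRL it gave 3752 lower and 3791 higher over all genes, against 3504 and 3628. In CTRL, libraries of equal number were the most alike in their deviations from the group mean, though replicates 2 and 3 were also alike. A fit blocked on these numbers within each line made ALDH1L2, ASNS and CEBPG lower in CTRL as well (log2 fold changes of -0.28, -0.23 and -0.18, adjusted p = 5.46e-05, 0.000973 and 0.0013).

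**Figure D2:**
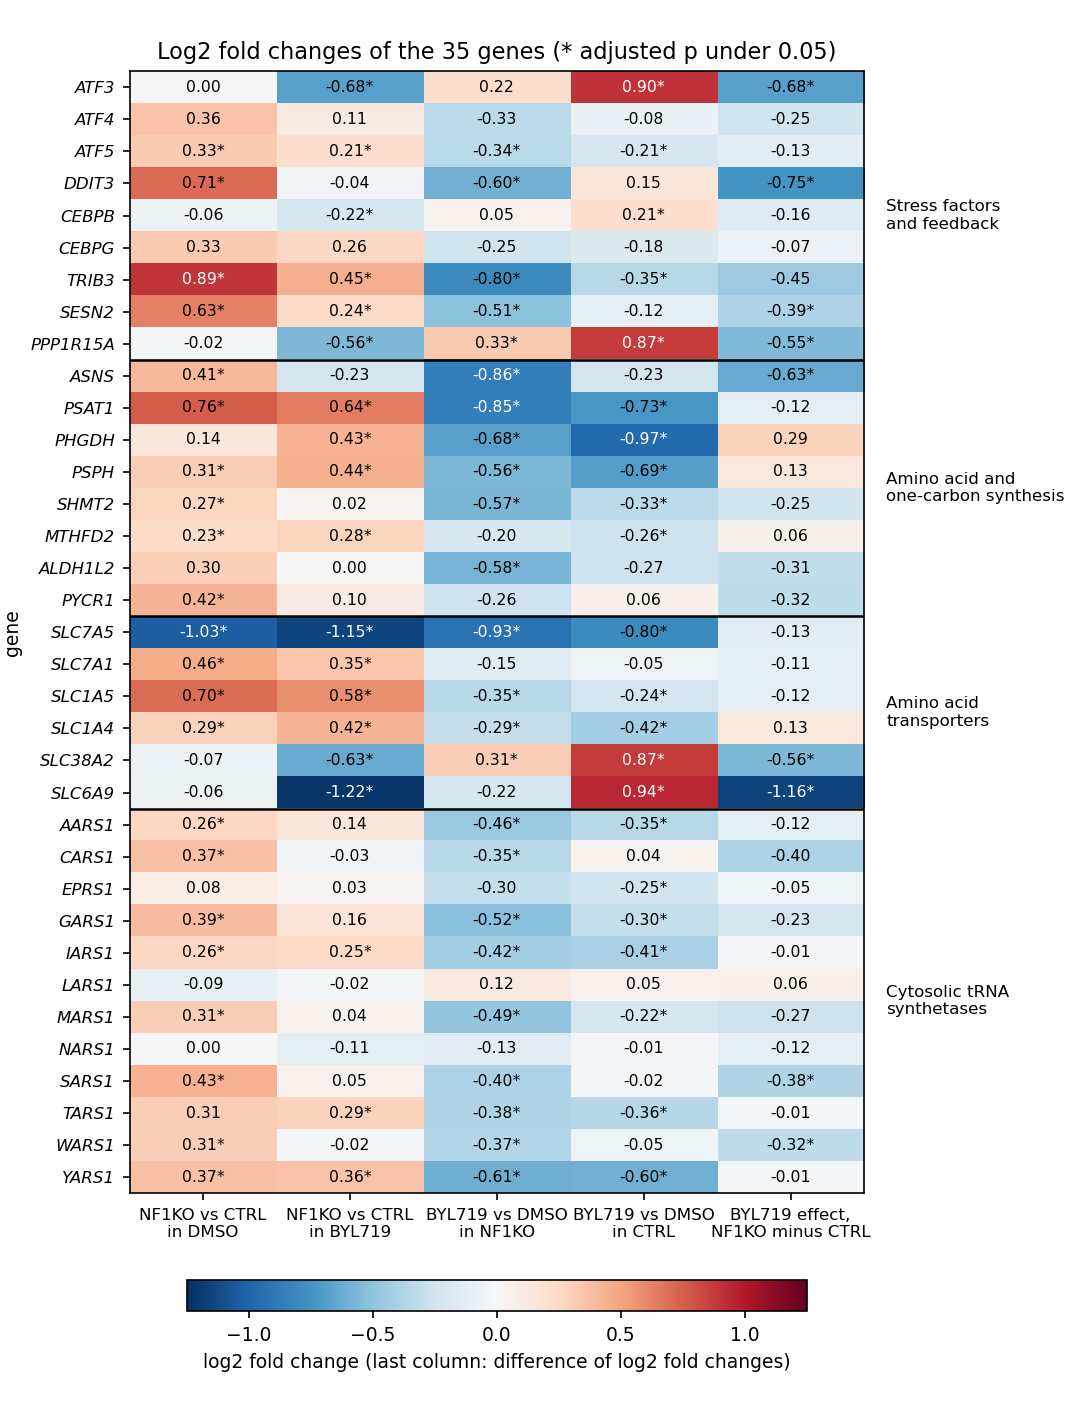
Log2 fold change of each of the 35 genes (rows, grouped by role) in the 4 comparisons and in NF1KO minus CTRL for the BYL719 effect (columns), with red for higher, blue for lower and an asterisk for an adjusted p under 0.05. Most rows are red for NF1KO against CTRL in DMSO and blue for BYL719 in NF1KO, while SLC7A5 is blue in all 4 comparisons and ATF3, PPP1R15A, SLC38A2 and SLC6A9 are red for BYL719 in CTRL.

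Among the stress factors and their feedback regulators, 4 of 9 were higher in NF1KO DMSO than in CTRL DMSO (ATF5, DDIT3, TRIB3 and SESN2) and none was lower. The ATF4 transcript itself (chr22:39520559-39522686) had 193, 179 and 201 CPM in NF1KO BYL719 libraries, 233 and 248 CPM in NF1KO DMSO, 198, 167 and 166 CPM in CTRL BYL719 and 228, 175 and 159 CPM in CTRL DMSO. Both NF1KO DMSO values lay above all 3 of CTRL DMSO, but CTRL DMSO replicate 1 was close to them. The log2 fold change was 0.36 ± 0.13 (SE) between the lines in DMSO (adjusted p = 0.0743) and -0.33 ± 0.13 for BYL719 in NF1KO (adjusted p = 0.102), so ATF4 passed in no comparison in the unblocked edgeR model of all libraries. Of the alternatives, 5 of 17 called it between the lines in DMSO and 5 of 18 for BYL719 in NF1KO, and the others left it uncalled. Between the lines in DMSO the adjusted p was 0.0478 with DESeq2, 0.00427 with the replicate block, 0.0417 without CTRL BYL719 replicate 1, 0.00352 without CTRL DMSO replicate 1 and 0.000146 without both. For BYL719 in NF1KO it was 0.00891 in a fit of the NF1KO libraries alone, 0.00746 with the replicate block, 0.000161 with the block inside each line, 0.0244 without CTRL DMSO replicate 1 and 0.00215 without both CTRL replicate 1 libraries. Without both of these, ATF4 was also called between the lines in BYL719 (0.20, adjusted p = 0.0231).

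TRIB3 (chr20:380760-397559), a pseudokinase that ATF4 and CHOP induce and that restrains ATF4, had 91.8, 86.5 and 95.8 CPM in NF1KO BYL719 libraries, 160 and 157 CPM in NF1KO DMSO, 57.6, 70 and 73.7 CPM in CTRL BYL719 and 77.4, 91.5 and 87.7 CPM in CTRL DMSO. Both NF1KO DMSO libraries were far above all the others, and NF1KO BYL719 libraries overlapped CTRL DMSO. TRIB3 was 1.85-fold higher in NF1KO than in CTRL in DMSO (log2 0.89 ± 0.10, adjusted p = 6.51e-05) and 1.36-fold higher in BYL719 (log2 0.45 ± 0.09, adjusted p = 0.0023). BYL719 brought it to 57.6% of DMSO in NF1KO (adjusted p = 0.000468) and to 78.4% of DMSO in CTRL (adjusted p = 0.00906).

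DDIT3 (chr12:57516588-57520517), which encodes the stress factor CHOP, had 13.4, 13.1 and 15.4 CPM in NF1KO BYL719 libraries, 21 and 21.3 CPM in NF1KO DMSO, 15.2, 14.8 and 13.3 CPM in CTRL BYL719 and 15.2, 11.6 and 12.1 CPM in CTRL DMSO. The 2 NF1KO DMSO libraries stood above the other 9, which overlapped each other. The log2 fold change was 0.71 ± 0.12 between the lines in DMSO (adjusted p = 0.0012) and -0.60 ± 0.12 for BYL719 in NF1KO (adjusted p = 0.0052, and 0.0582 without NF1KO DMSO replicate 3). In BYL719 the lines differed by -0.04 ± 0.11 (adjusted p = 0.775). DDIT3 overlaps the end of MARS1 by 65 bases on the opposite strand, and whether the counting used strand is not given in the sources used here. DDIT3 counts came to between 5.11% and 5.94% of those of MARS1 in NF1KO libraries and to between 3.96% and 5.92% in CTRL libraries.

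SESN2, a stress-induced leucine sensor that restrains mTORC1, had 21.7, 20.7 and 20.2 CPM in NF1KO BYL719 libraries, 29.8 and 29.7 CPM in NF1KO DMSO, 18, 17.5 and 17.5 CPM in CTRL BYL719 and 18.6, 19 and 20 CPM in CTRL DMSO. NF1KO exceeded CTRL in both treatments without overlap, by 0.63 ± 0.07 in DMSO (adjusted p = 4.25e-05) and by 0.24 ± 0.06 under BYL719 (adjusted p = 0.00884) on the log2 scale. BYL719 lowered SESN2 in NF1KO (-0.51 ± 0.07, adjusted p = 0.000607), while in CTRL it did not pass (-0.12 ± 0.06, adjusted p = 0.141).

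ATF3 and PPP1R15A behaved otherwise. ATF3, a leucine zipper factor induced by ATF4 and by several other stress pathways, had 21.1, 20.7 and 23.1 CPM in NF1KO BYL719 libraries, 18.8 and 18.3 CPM in NF1KO DMSO, 35.5, 33.6 and 34.7 CPM in CTRL BYL719 and 17.2, 19.2 and 19.4 CPM in CTRL DMSO. The 3 CTRL BYL719 libraries stood above the other 8. BYL719 raised ATF3 1.86-fold in CTRL (log2 0.90 ± 0.07, adjusted p = 1.51e-06), while in NF1KO the log2 fold change was 0.22 ± 0.08 (adjusted p = 0.0784, and 0.0297 without both CTRL replicate 1 libraries). In BYL719 ATF3 reached 62.5% of CTRL in NF1KO (adjusted p = 1.17e-05).

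PPP1R15A encodes GADD34, the phosphatase subunit that reverses eIF2 phosphorylation. It had 9.96, 11.4 and 11.5 CPM in NF1KO BYL719 libraries, 9.34 and 8.12 CPM in NF1KO DMSO, 16.7, 15.3 and 16.5 CPM in CTRL BYL719 and 8.5, 8.84 and 9.15 CPM in CTRL DMSO. The CTRL BYL719 libraries stood above the other 8. The rise with BYL719 was 0.33 ± 0.10 in NF1KO (adjusted p = 0.0393) and 0.87 ± 0.09 in CTRL (adjusted p = 9e-06) on the log2 scale. The call in NF1KO was lost without CTRL DMSO replicate 2 or 3, CTRL BYL719 replicate 3, NF1KO BYL719 replicate 2 or 3, or either NF1KO DMSO library (adjusted p between 0.0514 and 0.346), and with no filter on low counts (0.0612).

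The remaining 3 factors had log2 fold changes between -0.34 and 0.33. ATF5, a close relative of ATF4, was higher in NF1KO in DMSO (log2 0.33 ± 0.08) and likewise under BYL719 (0.21 ± 0.07), and was lowered by BYL719 in NF1KO (-0.34 ± 0.08) and in CTRL (-0.21 ± 0.07). It overlaps NUP62, whose counts were 322% of its own, and its calls were fragile. The one in DMSO was lost without CTRL DMSO replicate 3 or either NF1KO DMSO library (adjusted p up to 0.142), and the one in BYL719 without any single library other than CTRL DMSO replicate 1 and NF1KO BYL719 replicate 2 (up to 0.161), with DESeq2 (0.0557), with RLE scaling (0.058), with no filter on low counts (0.0571) and in a fit of the compared libraries alone (0.113). For BYL719 the ATF5 call in NF1KO was lost without NF1KO BYL719 replicate 2 or either NF1KO DMSO library (up to 0.148), and that in CTRL without CTRL BYL719 replicate 2 or 3 or CTRL DMSO replicate 1 or 2 (up to 0.121), or without both CTRL replicate 1 libraries (0.0648). CEBPB, which encodes a C/EBP partner of ATF4, was higher with BYL719 in CTRL (log2 0.21 ± 0.08, adjusted p = 0.0459) and lower in NF1KO than in CTRL in BYL719 (-0.22 ± 0.08, adjusted p = 0.043). The first CEBPB call was lost without any single library other than CTRL BYL719 replicate 1 and NF1KO BYL719 replicate 3 (up to 0.151), and the second without any other than CTRL DMSO replicate 1, CTRL BYL719 replicate 1 and NF1KO BYL719 replicate 3 (up to 0.138). Both CEBPB calls were also lost with no filter on low counts (0.0921 and 0.078) and in fits of the compared libraries alone (0.0968 and 0.093). CEBPG, the partner whose promoter stretch is shown above, passed in no comparison in the unblocked edgeR model of all libraries (log2 0.33 ± 0.11 between the lines in DMSO, adjusted p = 0.0592). In DMSO 6 alternatives called CEBPG higher in NF1KO, with an adjusted p of 0.0413 with DESeq2, 0.0288 in a fit of the compared libraries alone and 0.0333 without CTRL DMSO replicate 1.

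**Figure D3:**
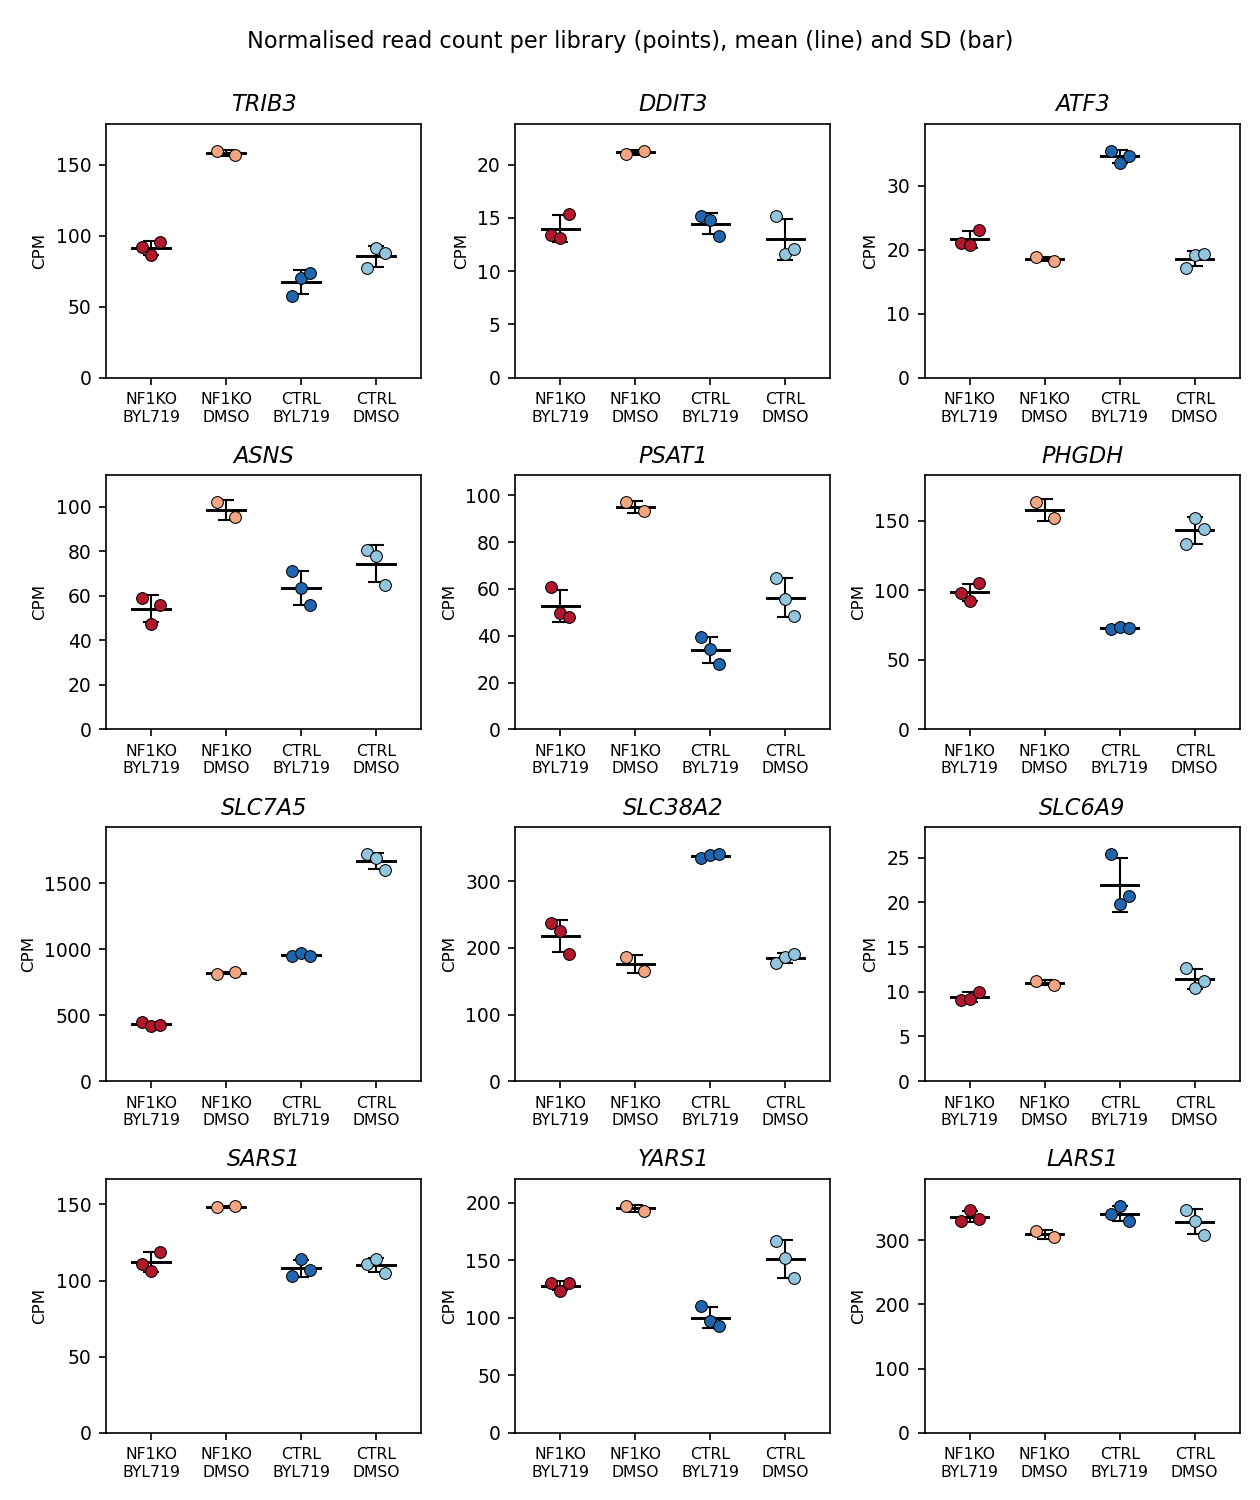
Normalised read count (CPM) of 12 genes of the set in each library (points), with the group mean (line) and SD (bar), on axes that start at 0. The NF1KO DMSO libraries stand above the rest for TRIB3, DDIT3, ASNS and SARS1, the CTRL BYL719 libraries stand above the rest for ATF3, SLC38A2 and SLC6A9, and the CTRL DMSO libraries stand above the rest for SLC7A5.

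Of the 8 enzymes of amino acid and one-carbon synthesis, 6 were higher in NF1KO than in CTRL in DMSO and 4 in BYL719, none was lower in either, and the medians were 0.31 and 0.19 (log2). BYL719 lowered 6 of them in NF1KO and 5 in CTRL and raised none, with medians of -0.57 and -0.30. PSAT1, the aminotransferase of serine synthesis, had 60.7, 49.8 and 48.1 CPM in NF1KO BYL719 libraries, 97 and 93.4 CPM in NF1KO DMSO, 39.3, 34.5 and 28 CPM in CTRL BYL719 and 64.8, 55.6 and 48.4 CPM in CTRL DMSO. The lines did not overlap in either treatment, and NF1KO BYL719 libraries lay within the range of CTRL DMSO and just below it. PSAT1 was 1.69-fold higher in NF1KO in DMSO (log2 0.76 ± 0.15, adjusted p = 0.0032) and 1.56-fold higher in BYL719 (log2 0.64 ± 0.14, adjusted p = 0.00242). It came to 55.6% of DMSO with BYL719 in NF1KO (adjusted p = 0.0025) and to 60.3% in CTRL (adjusted p = 0.000939).

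PHGDH, which starts serine synthesis from a glycolytic intermediate, had 97.6, 92.3 and 105 CPM in NF1KO BYL719 libraries, 163 and 152 CPM in NF1KO DMSO, 72.1, 73.7 and 73 CPM in CTRL BYL719 and 133, 152 and 144 CPM in CTRL DMSO. The lines touched at 152 CPM in DMSO and were apart in BYL719. BYL719 gave log2 fold changes of -0.68 ± 0.08 in NF1KO (adjusted p = 0.000193) and -0.97 ± 0.07 in CTRL (adjusted p = 6.3e-07). NF1KO exceeded CTRL in BYL719 by 0.43 ± 0.07 (adjusted p = 0.00035) and did not pass in DMSO (0.14 ± 0.08, adjusted p = 0.212). PSPH, the last enzyme of that route, had 53.3, 50.4 and 58.9 CPM in NF1KO BYL719 libraries, 78.6 and 81.1 CPM in NF1KO DMSO, 38.6, 42 and 39.2 CPM in CTRL BYL719 and 62, 64.6 and 67.1 CPM in CTRL DMSO. All 4 groups of PSPH were apart, with log2 fold changes of 0.31 ± 0.08 between the lines in DMSO (adjusted p = 0.0151), 0.44 ± 0.07 in BYL719 (adjusted p = 0.000321), -0.56 ± 0.08 for BYL719 in NF1KO (adjusted p = 0.000703) and -0.69 ± 0.07 in CTRL (adjusted p = 1.01e-05). The PSPH call in DMSO was lost without NF1KO DMSO replicate 2 or 3 (adjusted p = 0.0772 and 0.128).

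ASNS (chr7:97851677-97928441), the asparagine synthetase with a core at 68 bases before an annotated start, had 59.2, 47.4 and 55.9 CPM in NF1KO BYL719 libraries, 102 and 95.6 CPM in NF1KO DMSO, 71, 63.4 and 56 CPM in CTRL BYL719 and 80.4, 78.1 and 64.8 CPM in CTRL DMSO. The 2 NF1KO DMSO libraries were highest and the NF1KO BYL719 libraries lowest, with overlap between NF1KO BYL719 and CTRL BYL719. BYL719 brought ASNS to 54.9% of DMSO in NF1KO (log2 -0.86 ± 0.12, adjusted p = 0.000777). In CTRL it came to 85.2% (log2 -0.23 ± 0.11, adjusted p = 0.112). In DMSO NF1KO was 1.32-fold above CTRL (log2 0.41 ± 0.12, adjusted p = 0.0355), a call lost without CTRL DMSO replicate 2 or 3 or NF1KO DMSO replicate 2 or 3 (adjusted p = 0.0529, 0.112, 0.208 and 0.122). ASNS lies among genes that were lower in the knockout line: the 20 nearest tested genes had a median log2 fold change of -0.49 in DMSO and -0.48 in BYL719, with 16 and 17 of them below 0. No other gene of the set had neighbours with a median beyond 0.3 between the lines. A read-through gene at the same place, CZ1P-ASNS, had 99.9% of the counts of ASNS, so reads of the 2 names cannot be told apart.

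PYCR1, which makes proline, had 148, 133 and 149 CPM in NF1KO BYL719 libraries, 170 and 172 CPM in NF1KO DMSO, 122, 133 and 144 CPM in CTRL BYL719 and 114, 132 and 137 CPM in CTRL DMSO. It was higher in NF1KO than in CTRL in DMSO (log2 0.42 ± 0.09, adjusted p = 0.00713, and 0.0513 and 0.0614 without NF1KO DMSO replicate 2 or 3) and passed in no other comparison. The mitochondrial folate enzymes SHMT2 and MTHFD2 were higher in NF1KO in DMSO by 0.27 ± 0.06 and 0.23 ± 0.07 (log2). The SHMT2 call was lost without NF1KO DMSO replicate 2 or 3 (adjusted p = 0.0894 and 0.0874), and that of MTHFD2 without any CTRL DMSO or NF1KO DMSO library (adjusted p up to 0.217) and with no filter on low counts (0.0575). BYL719 lowered SHMT2 by 0.57 (log2) in NF1KO and by 0.33 in CTRL, where MTHFD2 fell by 0.26. MTHFD2 in NF1KO did not pass (-0.20 ± 0.07, adjusted p = 0.0532). ALDH1L2, a mitochondrial formyl-folate dehydrogenase, was lower with BYL719 in NF1KO only just (log2 -0.58 ± 0.19, adjusted p = 0.0496), and this call was lost without any NF1KO library, CTRL DMSO replicate 2 or 3, or CTRL BYL719 replicate 2 (adjusted p between 0.056 and 0.224).

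The 6 amino acid transporters did not move as a body. In DMSO 3 were higher in NF1KO and 1 was lower, in BYL719 3 were higher and 3 lower, and the medians were 0.11 and -0.14 (log2). SLC7A5 (chr16:87830023-87869507), the LAT1 carrier of leucine and other large neutral amino acids, had 450, 414 and 426 CPM in NF1KO BYL719 libraries, 813 and 824 CPM in NF1KO DMSO, 949, 973 and 948 CPM in CTRL BYL719 and 1720, 1690 and 1600 CPM in CTRL DMSO. All 4 groups were apart, and CTRL exceeded NF1KO in each treatment. SLC7A5 in NF1KO came to 49% of CTRL in DMSO (log2 -1.03 ± 0.07, adjusted p = 8.09e-07) and to 45% under BYL719 (-1.15 ± 0.06, adjusted p = 3.68e-08). With BYL719 it came to 52.5% of DMSO in NF1KO (-0.93 ± 0.07, adjusted p = 1.95e-05) and to 57.3% in CTRL (-0.80 ± 0.06, adjusted p = 1e-06). SLC3A2, the heavy chain that SLC7A5 needs at the membrane, was named for that role after its values were seen. It had 253, 226 and 248 CPM in NF1KO BYL719 libraries, 351 and 351 CPM in NF1KO DMSO, 325, 360 and 345 CPM in CTRL BYL719 and 515, 548 and 500 CPM in CTRL DMSO. SLC3A2 was lower in NF1KO in DMSO (-0.57 ± 0.08, adjusted p = 0.00022) and likewise under BYL719 (-0.51 ± 0.07, adjusted p = 8.22e-05), and lower with BYL719 in NF1KO (-0.54 ± 0.07, adjusted p = 0.000731) and in CTRL (-0.60 ± 0.07, adjusted p = 2.24e-05).

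SLC1A5, the ASCT2 carrier of glutamine and other neutral amino acids, went the other way between the lines. It had 283, 267 and 293 CPM in NF1KO BYL719 libraries, 356 and 362 CPM in NF1KO DMSO, 177, 194 and 191 CPM in CTRL BYL719 and 217, 231 and 215 CPM in CTRL DMSO, with no overlap between the lines. NF1KO was 1.62-fold above CTRL in DMSO (log2 0.70 ± 0.07, adjusted p = 1.95e-05) and 1.5-fold above it in BYL719 (0.58 ± 0.06, adjusted p = 1.49e-05). SLC1A5 fell with BYL719 by 0.35 (log2) in NF1KO (adjusted p = 0.00505, and 0.0639 without NF1KO DMSO replicate 3) and by 0.24 in CTRL (adjusted p = 0.00923).

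SLC7A1, the cationic amino acid carrier CAT1, had 139, 118 and 111 CPM in NF1KO BYL719 libraries, 136 and 137 CPM in NF1KO DMSO, 114, 85.9 and 88 CPM in CTRL BYL719 and 115, 93.3 and 89.5 CPM in CTRL DMSO. Within CTRL, replicate 1 was well above the other 2 in each treatment. SLC7A1 was higher in NF1KO in DMSO (0.46 ± 0.14, adjusted p = 0.0375) and likewise under BYL719 (0.35 ± 0.13, adjusted p = 0.0436). The first call was lost without CTRL DMSO replicate 2 or 3, NF1KO BYL719 replicate 2 or either NF1KO DMSO library (adjusted p up to 0.172), and the second without CTRL DMSO replicate 2, CTRL BYL719 replicate 2 or 3, NF1KO BYL719 replicate 1 or 2, or either NF1KO DMSO library (up to 0.177) and with RLE scaling (0.053). SLC1A4, a relative of SLC1A5 that carries alanine, serine and cysteine, was higher in NF1KO by 0.29 ± 0.09 in DMSO and 0.42 ± 0.08 in BYL719, and BYL719 lowered it by 0.29 in NF1KO and by 0.42 in CTRL (log2). The SLC1A4 call in DMSO was lost without CTRL DMSO replicate 2 or 3 or either NF1KO DMSO library (adjusted p up to 0.194). Its BYL719 call in NF1KO was lost without CTRL DMSO replicate 2, NF1KO BYL719 replicate 2 or 3 or either NF1KO DMSO library (up to 0.19).

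Like ATF3 and PPP1R15A, both SLC38A2 and SLC6A9 rose with BYL719 in CTRL. SLC38A2 encodes SNAT2, a sodium-coupled carrier that cells raise when amino acids run short. It had 238, 225 and 191 CPM in NF1KO BYL719 libraries, 186 and 166 CPM in NF1KO DMSO, 336, 340 and 341 CPM in CTRL BYL719 and 177, 187 and 191 CPM in CTRL DMSO. The CTRL BYL719 libraries stood above the other 8, and the NF1KO BYL719 libraries overlapped CTRL DMSO. The rise with BYL719 was 0.31 ± 0.09 in NF1KO (adjusted p = 0.0358) and 0.87 ± 0.08 in CTRL (adjusted p = 5.45e-06). The NF1KO call was lost without CTRL DMSO replicate 2, CTRL BYL719 replicate 3, NF1KO BYL719 replicate 1 or 2 or either NF1KO DMSO library (adjusted p between 0.052 and 0.318). In BYL719 SLC38A2 in NF1KO came to 64.5% of CTRL (adjusted p = 6.44e-05).

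SLC6A9, the glycine carrier GLYT1, had 9.05, 9.18 and 10 CPM in NF1KO BYL719 libraries, 11.2 and 10.8 CPM in NF1KO DMSO, 25.4, 19.8 and 20.7 CPM in CTRL BYL719 and 12.7, 10.4 and 11.2 CPM in CTRL DMSO. The CTRL BYL719 libraries were apart from the other 8. With BYL719 the log2 fold change was -0.22 ± 0.12 in NF1KO (adjusted p = 0.234) and 0.94 ± 0.11 in CTRL (adjusted p = 2.45e-05), and SLC6A9 in NF1KO came to 42.8% of CTRL in BYL719 (adjusted p = 2.6e-06). CCDC24, which overlaps SLC6A9, had 34.7% of its counts.

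Of the 12 cytosolic tRNA synthetases, 8 were higher in NF1KO than in CTRL in DMSO, with a median of 0.31 (log2), and 3 were higher in BYL719 (IARS1, TARS1 and YARS1), with a median of 0.05. None was lower in either. BYL719 lowered 9 in NF1KO and 7 in CTRL and raised none, with medians of -0.39 and -0.24. YARS1, which charges tyrosine, had 130, 123 and 130 CPM in NF1KO BYL719 libraries, 197 and 193 CPM in NF1KO DMSO, 110, 97.2 and 92.5 CPM in CTRL BYL719 and 167, 152 and 134 CPM in CTRL DMSO. The 4 groups were apart, NF1KO being above CTRL in each treatment. YARS1 differed between the lines by 0.37 ± 0.10 in DMSO (adjusted p = 0.0169) and by 0.36 ± 0.09 under BYL719 (adjusted p = 0.00589). With BYL719 it came to 65.5% of DMSO in NF1KO (adjusted p = 0.00136) and to 66.1% in CTRL (adjusted p = 0.000157), near-equal ratios in the 2 lines. S100PBP, which overlaps YARS1, had 30.1% of its counts.

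SARS1, which charges serine, had 111, 106 and 119 CPM in NF1KO BYL719 libraries, 148 and 149 CPM in NF1KO DMSO, 103, 114 and 107 CPM in CTRL BYL719 and 111, 114 and 105 CPM in CTRL DMSO. Only the NF1KO DMSO libraries were apart, the other 9 lying between 103 and 119 CPM. SARS1 was 1.35-fold higher in NF1KO in DMSO (log2 0.43 ± 0.07, adjusted p = 0.00126) and came to 75.6% of DMSO with BYL719 in NF1KO (adjusted p = 0.0032). WARS1, which charges tryptophan and is also induced by interferon, had the same shape, with 129, 128 and 125 CPM in NF1KO BYL719 libraries, 164 and 167 CPM in NF1KO DMSO, 128, 132 and 128 CPM in CTRL BYL719 and 137, 137 and 127 CPM in CTRL DMSO. Its log2 fold changes were 0.31 ± 0.06 between the lines in DMSO (adjusted p = 0.00395, and 0.0552 without NF1KO DMSO replicate 3) and -0.37 ± 0.06 for BYL719 in NF1KO (adjusted p = 0.00186).

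GARS1, which charges glycine, had 234, 212 and 212 CPM in NF1KO BYL719 libraries, 316 and 314 CPM in NF1KO DMSO, 216, 192 and 181 CPM in CTRL BYL719 and 268, 239 and 215 CPM in CTRL DMSO. MARS1, for methionine, had 262, 241 and 264 CPM in NF1KO BYL719 libraries, 362 and 358 CPM in NF1KO DMSO, 257, 249 and 240 CPM in CTRL BYL719 and 314, 293 and 263 CPM in CTRL DMSO. For both genes the NF1KO DMSO libraries were highest, and the BYL719 libraries of the lines overlapped. GARS1 differed between the lines in DMSO by 0.39 ± 0.10 and MARS1 by 0.31 ± 0.08, and BYL719 lowered GARS1 by 0.52 in NF1KO and 0.30 in CTRL and MARS1 by 0.49 in NF1KO and 0.22 in CTRL (log2).

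IARS1, for isoleucine, had 185, 175 and 176 CPM in NF1KO BYL719 libraries, 234 and 245 CPM in NF1KO DMSO, 154, 152 and 144 CPM in CTRL BYL719 and 213, 205 and 182 CPM in CTRL DMSO. TARS1, for threonine, had 231, 205 and 208 CPM in NF1KO BYL719 libraries, 277 and 281 CPM in NF1KO DMSO, 193, 172 and 162 CPM in CTRL BYL719 and 260, 228 and 188 CPM in CTRL DMSO. In both genes the lines were apart within each treatment, and CTRL replicate 1 was the highest of its group. IARS1 differed between the lines by 0.26 ± 0.08 in DMSO (adjusted p = 0.0307) and by 0.25 ± 0.07 under BYL719 (adjusted p = 0.0112). TARS1 did not pass in DMSO (0.31 ± 0.12, adjusted p = 0.0897) and passed in BYL719 (0.29 ± 0.11, adjusted p = 0.0466). With BYL719 both fell, IARS1 by 0.42 in NF1KO and 0.41 in CTRL and TARS1 by 0.38 in NF1KO and 0.36 in CTRL.

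AARS1 and CARS1, for alanine and cysteine, were higher in NF1KO in DMSO by 0.26 ± 0.08 and 0.37 ± 0.10 and fell with BYL719 in NF1KO by 0.46 and 0.35. In CTRL BYL719 lowered AARS1 by 0.35 and left CARS1 at 0.04 ± 0.09 (adjusted p = 0.709). The synthetases for leucine and asparagine, LARS1 and NARS1, were called in no comparison, with log2 fold changes between -0.13 and 0.12. EPRS1, which charges both glutamate and proline, was called only for BYL719 in CTRL (-0.25 ± 0.09, adjusted p = 0.0445), with -0.30 ± 0.10 in NF1KO (adjusted p = 0.0659), and was lost without any single library other than CTRL BYL719 replicate 1 and CTRL DMSO replicate 3 (adjusted p up to 0.178).

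Most of the synthetase calls in DMSO rested on the small NF1KO DMSO group. Those of AARS1, CARS1, GARS1, IARS1, MARS1 and YARS1 were lost without NF1KO DMSO replicate 2 (adjusted p between 0.0982 and 0.202), without NF1KO DMSO replicate 3 (between 0.098 and 0.222) and without CTRL DMSO replicate 3 (between 0.0581 and 0.106), and those of AARS1, CARS1 and IARS1 also without CTRL DMSO replicate 2 (between 0.0515 and 0.076). In BYL719 the IARS1 call was lost without CTRL BYL719 replicate 3 (0.0563), and that of TARS1 without any single library other than CTRL DMSO replicates 1 and 3 and CTRL BYL719 replicate 1 (up to 0.163) and with RLE scaling (0.0565). For BYL719 in NF1KO the calls lost were IARS1 without NF1KO DMSO replicate 3 (0.0542), CARS1 without NF1KO BYL719 replicate 1 or 2 or either NF1KO DMSO library (up to 0.158), and TARS1 without any NF1KO library, CTRL DMSO replicate 2 or CTRL BYL719 replicate 2 (up to 0.217). In CTRL the BYL719 calls of GARS1 and MARS1 were lost without CTRL DMSO replicate 1 or CTRL BYL719 replicate 2 or 3 (between 0.0562 and 0.105), MARS1 also without CTRL DMSO replicate 2 (0.0722), and TARS1 without CTRL DMSO replicate 1 or CTRL BYL719 replicate 3 (0.0616 and 0.0691). A fit of the CTRL libraries alone gave these 3 genes 0.0524, 0.0593 and 0.0518.

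**Figure D4:**
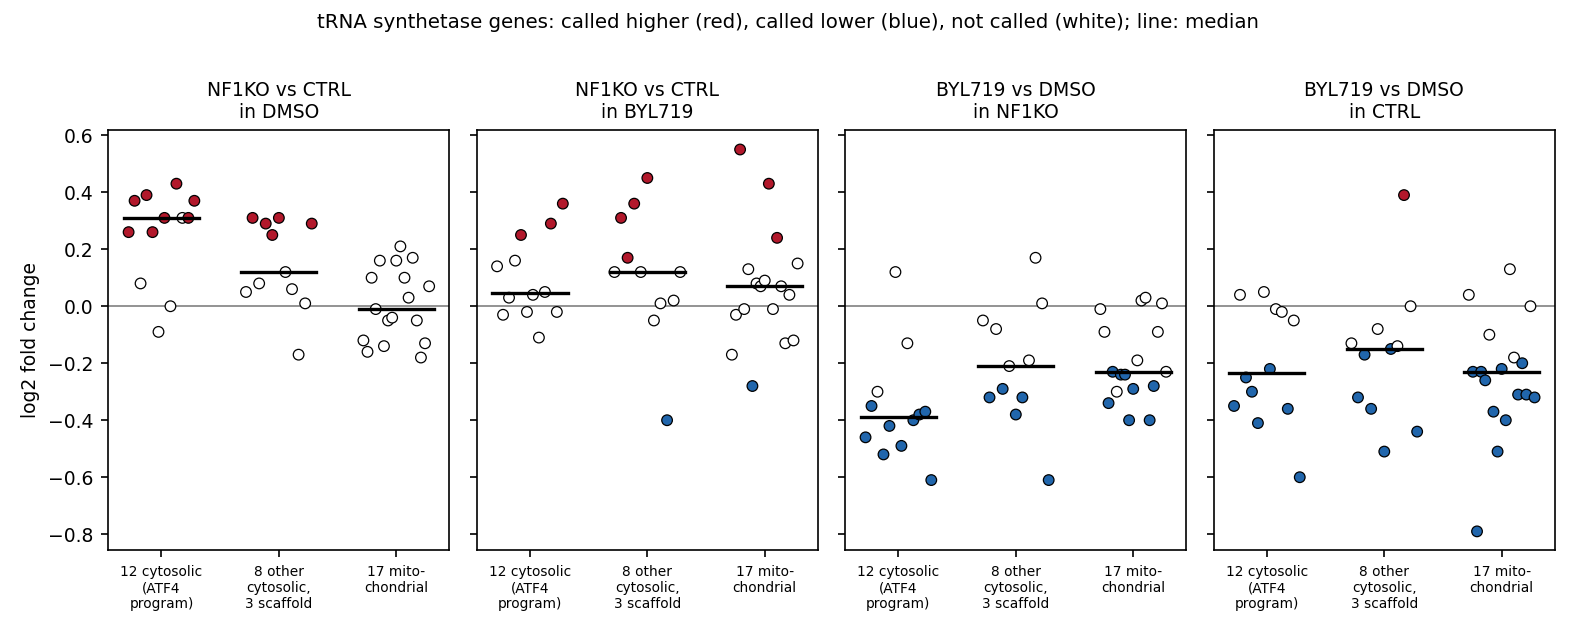
Log2 fold change of each tRNA synthetase gene (points) in 4 comparisons, for the 12 cytosolic synthetases of the set, 8 other cytosolic synthetases with 3 scaffold genes, and 17 mitochondrial synthetases, with medians as lines and calls in red (higher) and blue (lower). In NF1KO against CTRL in DMSO the medians are 0.31, 0.12 and -0.01, and in BYL719 against DMSO in CTRL they are -0.24, -0.15 and -0.23.

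Synthetases outside the set give a measure of how far the shift reached. The 8 other cytosolic synthetases and 3 scaffold genes had 5 genes higher and none lower in NF1KO in DMSO, with a median of 0.12. Among them VARS1 (0.29 ± 0.06, adjusted p = 0.00495) and FARSB (0.31 ± 0.07, adjusted p = 0.0103), for valine and phenylalanine, had the smallest p, with VARS1 at 0.056 without NF1KO DMSO replicate 2 and FARSB at 0.142 without NF1KO DMSO replicate 3. None of the 17 mitochondrial synthetases was called in that comparison by edgeR, with a median of -0.01 and values between -0.18 and 0.21. At an unadjusted p under 0.05 there were 3, and DESeq2 called NARS2 (adjusted p = 0.0399). BYL719 lowered genes of all 3 classes: of the mitochondrial genes 8 were lower in NF1KO and 12 in CTRL, and of the other cytosolic and scaffold genes 5 and 6, with QARS1 alone higher in CTRL (0.39 ± 0.10, adjusted p = 0.006). Of all genes tested, 9.99% were higher and 10.3% lower in NF1KO in DMSO, and BYL719 lowered 8.47% in NF1KO and 21.8% in CTRL. Whether the classes differ from each other was not tested.

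The BYL719 effect itself differed between the lines for 9 of the 35 genes, all with a lower value in NF1KO, against 9.39% of all genes called in either direction (3.71% lower, 5.68% higher). The median difference was -0.16 over the set and 0.01 over all genes, and 30 of the 35 values were below 0. The genes fall into 2 shapes by the values above. In SLC6A9 (-1.16 ± 0.16, adjusted p = 0.000681), ATF3 (-0.68 ± 0.11, adjusted p = 0.00184), SLC38A2 (-0.56 ± 0.12, adjusted p = 0.0127) and PPP1R15A (-0.55 ± 0.13, adjusted p = 0.0219) the rise seen in CTRL with BYL719 was smaller in NF1KO or did not pass there. In DDIT3 (-0.75 ± 0.16, adjusted p = 0.0116), ASNS (-0.63 ± 0.17, adjusted p = 0.0319), SESN2 (-0.39 ± 0.09, adjusted p = 0.022), SARS1 (-0.38 ± 0.10, adjusted p = 0.0316) and WARS1 (-0.32 ± 0.08, adjusted p = 0.0294) the gene fell in NF1KO, where DMSO levels were higher, and did not pass in CTRL. For this second shape the difference in DMSO, the fall in NF1KO and the difference of the effects all use the same NF1KO DMSO libraries. For the first shape the rise in CTRL, the lower NF1KO level in BYL719 and the difference of the effects all use the CTRL BYL719 libraries. Calls that share libraries in this way are not separate observations. TRIB3 had a difference of -0.45 ± 0.14 and did not pass (adjusted p = 0.0696, but 0.0257 with DESeq2). Blocking on the replicate numbers inside each line called TRIB3 (adjusted p = 0.000167) and ATF4 (-0.27, adjusted p = 0.0127) as well, with 19 of the 35 genes lower and PHGDH higher. Over all genes this block called 1942 lower and 2403 higher, against 596 and 914 without it. PSAT1, SLC7A5, SLC1A5, IARS1 and YARS1 had differences of -0.12, -0.13, -0.12, -0.01 and -0.01, with SE of 0.20, 0.09, 0.09, 0.10 and 0.13.

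ATF3 and SLC6A9 kept this call in every alternative. Without CTRL DMSO replicate 2 or NF1KO BYL719 replicate 2 the count was 5 in each, and lower calls over all genes were 377 and 404 against 596. The count fell further without either NF1KO DMSO library, where 1 library was left in the group, and lower calls over all genes fell too. DDIT3 was lost without NF1KO DMSO replicate 2 or 3 (adjusted p = 0.057 and 0.0646), SLC38A2 without NF1KO DMSO replicate 2 (0.102) and PPP1R15A without NF1KO DMSO replicate 2 or CTRL DMSO replicate 2 (0.155 and 0.0518). ASNS and WARS1 were lost without CTRL DMSO replicate 2 or 3, CTRL BYL719 replicate 2, NF1KO BYL719 replicate 2 or either NF1KO DMSO library (between 0.0502 and 0.154). SESN2 was lost without CTRL DMSO replicate 2, NF1KO BYL719 replicate 2 or either NF1KO DMSO library (up to 0.114), and SARS1 without CTRL DMSO replicate 3, CTRL BYL719 replicate 2 or 3, NF1KO BYL719 replicate 1 or 2 or either NF1KO DMSO library (up to 0.138). With no filter on low counts SARS1, SESN2 and WARS1 were lost as well (adjusted p = 0.0538, 0.0549 and 0.0716).

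**Figure D5:**
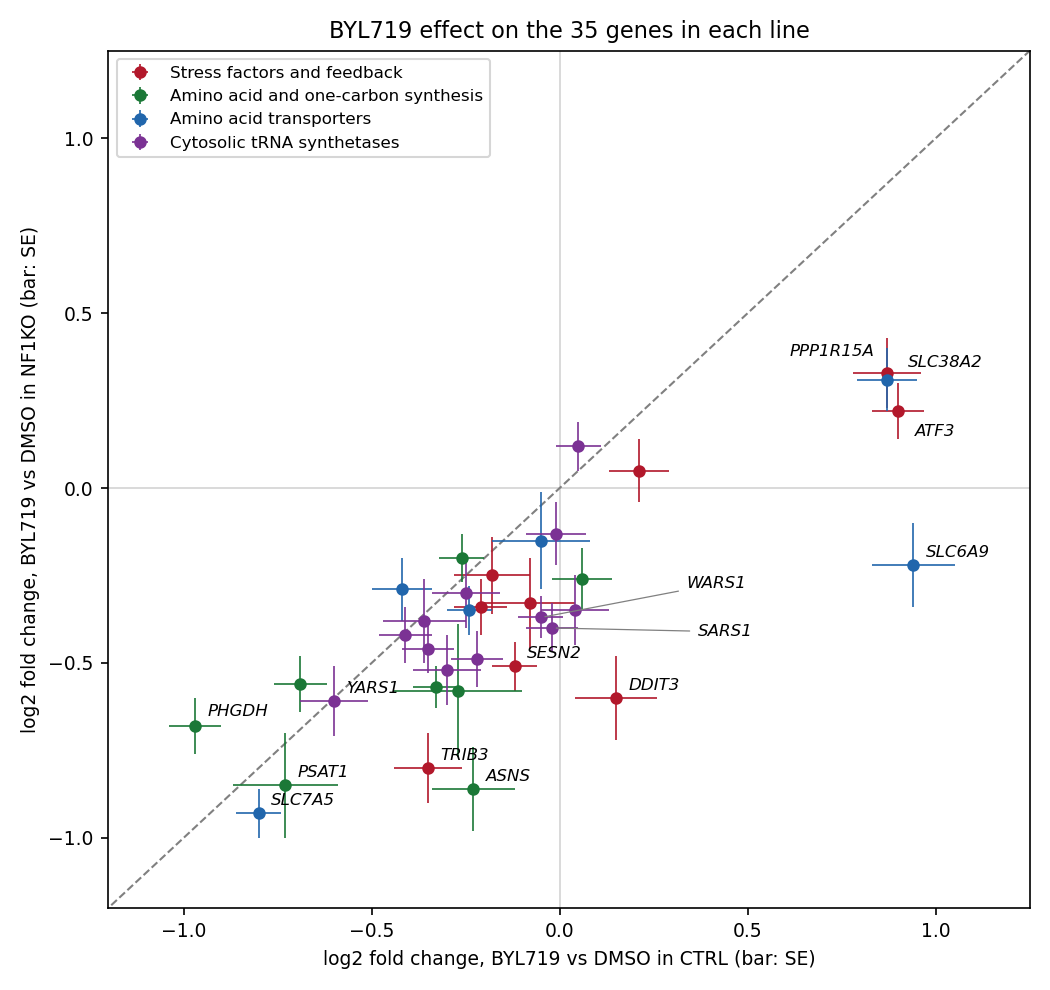
Log2 fold change of BYL719 against DMSO in NF1KO (vertical axis) and in CTRL (horizontal axis) for the 35 genes, with SE bars and colour by role; the dashed line marks equal effects. SLC6A9, ATF3, SLC38A2 and PPP1R15A lie far below the line at the right, and DDIT3, ASNS and SESN2 lie below it near the middle, while PSAT1, SLC7A5 and YARS1 lie within their bars of it or close to it.

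Genes of the same pathway outside the set were mixed. Of all genes tested, 9.99% were higher and 10.3% lower in NF1KO in DMSO, and 20.8% and 19% in BYL719. With BYL719, 8.47% were lower and 10.3% higher in NF1KO, and 21.8% and 22.6% in CTRL. Counts near these shares, in this and the next paragraphs, give no result about a list. Upstream, of 14 genes for the eIF2 kinases, eIF2, the exchange factor eIF2B and PPP1R15B, 1 was called in DMSO between the lines: EIF2AK4, which encodes the amino acid sensing kinase GCN2, was lower in NF1KO (-0.27 ± 0.07, adjusted p = 0.0138, and 0.0915 and 0.125 without NF1KO DMSO replicate 2 or 3). In BYL719 EIF2B3 was higher (0.30 ± 0.07) and EIF2B4 lower (-0.34 ± 0.06) in NF1KO. BYL719 lowered 4 of the 14 in NF1KO and 4 in CTRL, with EIF2B3, a subunit of the exchange factor, falling by 0.44 in NF1KO and 0.55 in CTRL, and it raised 2 in CTRL and none in NF1KO.

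Of 14 other tested genes known to respond to ATF4, 4 were higher and 4 lower in NF1KO in DMSO, with a median of 0.03, and FGF21 had too few counts to be tested. CHAC1, a glutathione-cleaving enzyme whose promoter stretch is shown above, had 1.96, 1.61 and 2.25 CPM in NF1KO BYL719 libraries, 7.66 and 7.83 CPM in NF1KO DMSO, 2, 2.31 and 1.73 CPM in CTRL BYL719 and 1.58, 2.02 and 1.21 CPM in CTRL DMSO. The NF1KO DMSO libraries stood above the other 9, which overlapped each other. CHAC1 was 4.82-fold higher in NF1KO than in CTRL in DMSO (log2 2.27 ± 0.20, adjusted p = 6.13e-06) and came to 25.1% of DMSO with BYL719 in NF1KO (adjusted p = 9.37e-05). In BYL719 the lines differed by -0.05 ± 0.19 (adjusted p = 0.859). GDF15, a stress-induced hormone, had 1.8, 1.71 and 1.87 CPM in NF1KO BYL719 libraries, 4.02 and 4.09 CPM in NF1KO DMSO, 1.61, 1.64 and 1.76 CPM in CTRL BYL719 and 0.636, 0.838 and 0.928 CPM in CTRL DMSO. With BYL719 GDF15 fell by 1.18 (log2) in NF1KO (adjusted p = 0.000461) and rose by 1.06 in CTRL (adjusted p = 0.000179).

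Of these genes NUPR1 and JDP2 stood nearer to ATF3 in their BYL719 effect. NUPR1, a stress-induced chromatin protein, had 37.4, 33.5 and 38.1 CPM in NF1KO BYL719 libraries, 41.5 and 40.4 CPM in NF1KO DMSO, 89.5, 96.1 and 89.8 CPM in CTRL BYL719 and 55.1, 54 and 53.5 CPM in CTRL DMSO. NUPR1 rose with BYL719 in CTRL (0.76 ± 0.06, adjusted p = 2.14e-06) and did not pass in NF1KO (-0.17 ± 0.07, adjusted p = 0.117). Unlike those of ATF3, its NF1KO DMSO values lay well below all of CTRL DMSO. JDP2, a leucine zipper repressor, rose with BYL719 in CTRL (0.57 ± 0.08, adjusted p = 8.86e-05) and did not pass in NF1KO (-0.14 ± 0.09, adjusted p = 0.277). EIF4EBP1, the translation inhibitor that mTORC1 phosphorylates, had another shape. It was higher in NF1KO in DMSO (0.97 ± 0.09, adjusted p = 7.61e-06) and likewise under BYL719 (0.66 ± 0.08, adjusted p = 3.33e-05). Its CTRL means were 48.7 CPM in BYL719 and 52.2 CPM in DMSO.

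Among markers of the other branches of the unfolded protein response in DMSO, of 10 genes none was called by edgeR, 2 had an unadjusted p under 0.05, and DESeq2 called none. Their log2 fold changes lay between -0.12 and 0.25. BYL719 lowered 2 and raised 1 in NF1KO, and lowered 4 and raised 3 in CTRL. Over all genes it lowered 8.47% and raised 10.3% in NF1KO, and lowered 21.8% and raised 22.6% in CTRL. HERPUD1, a degradation factor of the endoplasmic reticulum, rose in CTRL (0.64 ± 0.08, adjusted p = 7.11e-05), and SDF2L1, a chaperone partner, fell by 0.53 in NF1KO and 0.94 in CTRL. Of 13 other tested synthesis genes 2 were higher and 2 lower in NF1KO in DMSO, and BYL719 lowered 4 and raised 1 in NF1KO and lowered 6 and raised 2 in CTRL. The 13 other tested amino acid transporters had 3 higher and 4 lower in NF1KO in DMSO, and with BYL719 3 lower and none higher in NF1KO and 4 lower and 5 higher in CTRL. SLC38A1, a glutamine carrier related to SLC38A2, was lower in NF1KO in DMSO (-0.87 ± 0.12, adjusted p = 0.000285) and likewise under BYL719 (-1.50 ± 0.11, adjusted p = 4.24e-07) and rose with BYL719 in CTRL (0.64 ± 0.11, adjusted p = 0.000401).

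Proliferation genes differed between the lines in their BYL719 effect, beside the genes described above. Of 8 such genes BYL719 lowered 3 in NF1KO (median -0.22) and 8 in CTRL (median -1.46), with MCM2, a replication helicase subunit, at -0.13 ± 0.06 in NF1KO (adjusted p = 0.167) and -1.12 ± 0.06 in CTRL (adjusted p = 4.51e-08). The difference of the BYL719 effect was called higher in NF1KO for 7 of the 8, while all 9 called genes of the ATF4 set were lower. Between the lines in DMSO 1 was higher and 1 lower. Over all genes BYL719 lowered 8.47% in NF1KO and 21.8% in CTRL, and its effect was higher in NF1KO for 5.68%. In DMSO 9.99% of all genes were higher in NF1KO and 10.3% lower. The part of growth rate in the levels of the ATF4 set was not tested. Of 6 fibroblast markers, COL1A1 made up nearly all of the summed level, with a mean of 19.5 ± 2.47 CPM in NF1KO BYL719 (SD, n = 3), 25.8 ± 0.0307 CPM in NF1KO DMSO (n = 2), 31.3 ± 4.25 CPM in CTRL BYL719 (n = 3) and 52.2 ± 2.89 CPM in CTRL DMSO (n = 3). COL1A2, COL3A1, DCN, LUM and THY1 had group means of at most 0.152 CPM, with COL3A1 at 0 in all NF1KO libraries and DCN at 0 in NF1KO DMSO. The 6 markers summed to 16.8 to 21.3 CPM in NF1KO BYL719, 26 and 26.2 CPM in NF1KO DMSO, 27.2 to 35.8 CPM in CTRL BYL719 and 49.6 to 55.3 CPM in CTRL DMSO.

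Calls of the genes with and without the promoter core were counted without a test of the difference. Of all genes tested, 9.99% were higher and 10.3% lower in NF1KO in DMSO. BYL719 lowered 8.47% and raised 10.3% in NF1KO, and lowered 21.8% and raised 22.6% in CTRL. Its effect was lower in NF1KO for 3.71% and higher for 5.68%. Calls among the 346 tested genes with a core were not counted, so no share is at hand for the core itself. In DMSO 9 of the 13 genes with a core were higher in NF1KO and none lower, and of the 16 genes whose windows lacked it 8 were higher and 1 lower. BYL719 lowered 9 of the 13 and raised none in NF1KO, and lowered 9 and raised 2 of the 16. In CTRL 7 were lower in each class, with 1 higher among the 13 and 4 among the 16. The effect of BYL719 differed between the lines for 2 of the 13 (ASNS and ATF3) and for 7 of the 16.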

How the data were processed

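Polyadenylated RNA of T47D cells was sequenced from a stranded library. The deposited table holds the authors' read counts per gene, not normalized. Per the submitters' processing notes, STAR 2.5.2a, SAMtools 1.7, Picard 2.9.2 and edgeR were used with build hg38. The counting program, its strand setting and the annotation are not given in the sources used here. From these counts, genes with low counts were removed (filterByExpr), TMM factors computed and a quasi-likelihood model of 4 groups fitted to all 11 libraries in edgeR 4.0.16 (R 4.3.3, limma 3.58.1), leaving 7 residual degrees of freedom. The Benjamini-Hochberg adjustment covered all 16081 tested genes. SE is the absolute log2 fold change divided by the square root of F. The fits were first tried on simulated data with the same spread for all genes and larger changes than most of those reported. That trial does not cover changes of the size reported here. CPM was computed on the TMM-scaled library size, and 63 genes without a symbol stayed in the fit.

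Alternatives were RLE scaling, no filter, DESeq2 1.42.0, only the compared libraries, a replicate block, and each library left out. Added after seeing the data were the block within each genotype and the omission of both CTRL replicate 1 libraries. The pairing check gave correlations of 0.59, 0.34 and 0.32 for same-numbered CTRL libraries, all above 0.1, and 0.08 and 0.15 in NF1KO. Different-numbered CTRL libraries gave 0.18 and 0.23 between replicates 2 and 3, also above 0.1. Those with replicate 1 gave -0.42 to -0.36, in part because deviations cancel out within a group. The positive values between replicates 2 and 3 show that part of the CTRL pattern is replicate 1 against the others. All 35 genes are described. Values per library are given for ATF4, DDIT3, ATF3 and, per role and comparison, up to 3 called genes with the largest absolute log2 fold change. Outside the set up to 4 genes per list and comparison could be named, by smallest adjusted p. Genes and lists were chosen with earlier results of these data known. RefSeq (GRCh38.p14) gave positions and promoter windows, and 27740 identifiers (99.6%) matched. No window was at hand for ALDH1L2, LARS1, PSPH, PYCR1, SHMT2 and YARS1. Some single-gene values of the other lists, which enter the counts, are not reported here.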

Additional observations from a re-analysis of the deposited data

Results flagged for a closer look

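The BYL719 effect (log2, BYL719 against DMSO) differed between NF1KO and CTRL past an adjusted p of 0.05, by a test of the difference itself in the edgeR quasi-likelihood model, for 29 of the genes reported here. Of all 16081 genes tested, 9.39% were called for this difference (3.71% lower, 5.68% higher). The genes reported were chosen with earlier results of these data known, so their count is a list and not a result about the lists. Values are NF1KO minus CTRL. In the ATF4 set these were SLC6A9 (-1.16), DDIT3 (-0.75), ATF3 (-0.68), ASNS (-0.63), SLC38A2 (-0.56), PPP1R15A (-0.55), SESN2 (-0.39), SARS1 (-0.38) and WARS1 (-0.32), all lower in NF1KO. Among the other genes that respond to ATF4 they were CHAC1 (-2.32), GDF15 (-2.24), NUPR1 (-0.93) and JDP2 (-0.71). The exchange factor subunit EIF2B4 had -0.30 and lost its call without any single library except CTRL BYL719 replicate 1 and NF1KO BYL719 replicate 3. Among synthesis genes SHMT1 (0.55), GLUL (0.49), MTHFD1 (0.41) and SFXN1 (0.32) were higher in NF1KO and PRODH (-0.45) was lower, and among transporters SLC36A1 (0.4) was higher and SLC43A2 (-0.79) and SLC38A1 (-0.63) were lower. The proliferation genes TOP2A (1.4), CCNB1 (1.28), PLK1 (1.2), RRM2 (1.2), CDC20 (1.17), MCM2 (0.99) and PCNA (0.96) were all higher in NF1KO.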

How the results depend on the processing

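Of the 35 genes' log2 fold changes under the alternatives, 2736 stayed on their side of the threshold (those not called could change sign near 0), 205 lost the call, 103 gained one and 1 changed sign with a call: ALDH1L2 between the lines in BYL719 was 0.25 (adjusted p = 0.0235) without both CTRL replicate 1 libraries. Leaving out single libraries gave 6 to 23 genes higher in NF1KO in DMSO, 0 to 2 higher and 14 to 25 lower with BYL719 in NF1KO, and 2 to 10 with a lower BYL719 effect in NF1KO. Where an NF1KO DMSO library was left out, its group kept 1 library, whose spread was taken from the remaining groups. Calls over all genes fell in those fits as well. With no filter on low counts 1 gene was higher with BYL719 in NF1KO. With the replicate block 14 genes had a lower BYL719 effect in NF1KO (878 lower and 1351 higher over all genes), and with the replicate block within each genotype 19 had a lower effect and 1 (PHGDH, 0.29) a higher effect (1942 lower and 2403 higher over all genes), against 596 lower and 914 higher over all genes without a block. The block changed no count by more than 1.5 times between the lines or for BYL719 within a line. Without both CTRL replicate 1 libraries 1 gene had a higher BYL719 effect in NF1KO, and 1393 of all genes did, against 914 with all libraries. The cause of these changes was not tested. The NF1KO DMSO group of 2 libraries limits the comparisons that use it.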
